A study of Homo sapiens with 9 samples.

Results

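The genes described here belong to the urokinase system, which turns plasminogen into plasmin at the cell surface, and to the start and restraint of blood coagulation. They are PLAU, PLAT, PLAUR, SERPINE2, SERPINB2, F3, TFPI, TFPI2 and THBD, taken by gene symbol with no filter on their values. The list was chosen with earlier results of these data known. Of these 9 genes, 8 had a transcript cluster (the array's unit for a gene) with their symbol, 1 cluster each, among 17687 named genes and 21448 clusters in all, and the signal of SERPINB2 was not analysed here. Their Entrez IDs are 5328 (PLAU), 5327 (PLAT), 5329 (PLAUR), 5270 (SERPINE2), 2152 (F3), 7035 (TFPI), 7980 (TFPI2) and 7056 (THBD). The series holds 9 Clariom S expression arrays of ACC-MESO-1, a human cell line grown from a malignant pleural mesothelioma, the cancer of the membrane around the lungs. The cells had been infected with shLSD1 #1 (replicates 4 to 6), with shLSD1 #2 (replicates 7 to 9) or with a control shRNA (replicates 1 to 3), 3 arrays a group, all grown in serum-containing medium. Both hairpins are directed at LSD1, a histone demethylase that removes methyl groups from lysine 4 of histone H3, and the series asks how its suppression bears on the mesenchymal character of these cells. The transcript of LSD1 was not analysed here, so the depth of the knockdown is not known from these values. The model is a single cell line, and the labels do not say whether replicates were separate cultures, so p-values measure the spread between arrays, which may be technical.

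Urokinase (PLAU) and tissue plasminogen activator (PLAT) are serine proteases that cut plasminogen to plasmin, and the urokinase receptor (PLAUR) holds urokinase on the cell surface. Serpins such as SERPINE2 and SERPINB2 inactivate these proteases. Tissue factor (F3) binds factor VIIa and starts coagulation. TFPI blocks the tissue factor complex, TFPI2 is a related Kunitz-type inhibitor that acts on plasmin and other proteases of the matrix, and thrombomodulin (THBD) turns thrombin toward activation of protein C. Pleural mesothelial cells are known to make members of both systems, which govern fibrin in the pleural space.

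PLAU, PLAT, PLAUR and F3 fell with each hairpin, while TFPI, the inhibitor of the tissue factor pathway, did not pass the test with either. In log2 units, the changes of these 4 genes against control shRNA ran from -1.31 to -0.70 with shLSD1 #1 and from -1.43 to -0.67 with shLSD1 #2. None of the 4 passed with shLSD1 #1 once the spike-in class of the arrays, described below, was a block in the fit. SERPINE2, TFPI2 and THBD did not exceed the negative control probes on any of the 9 arrays. By limma with Benjamini-Hochberg adjustment over all clusters and a threshold of 0.05, 5 of the 8 members passed with shLSD1 #1, 4 lower and 1 (TFPI2) higher. Over all 21448 clusters 15.8% passed with that hairpin, 7.94% lower and 7.85% higher. With shLSD1 #2, 4 of 8 passed, all of them lower, against 13.2% of all clusters in either direction, 6.63% lower and 6.56% higher. These shares include clusters under the negative controls. Of 10315 clusters above them on at least 1 array, 2879 passed with shLSD1 #1 and 2455 with shLSD1 #2, beside 4 of 5 members with each. The same 4 genes were lower with both hairpins, where 5.32% of all clusters were. All 6 hairpin arrays lay below all 3 control arrays for those 4 genes, a pattern held by 11.3% of clusters, and above them for TFPI2, a pattern held by 11.6%. The median log2 change of the 8 members was -0.41 with shLSD1 #1 and -0.30 with shLSD1 #2, beside 0.03 and 0.02 over all clusters. The 2 comparisons share their 3 control arrays, so they are not separate measurements of the control level.

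Promoter sequences of 4 members are shown because 3 of them belong to genes that fell together with both hairpins and the other, TFPI, belongs to a gene that did not pass. Each runs 5′ to 3′ on the gene's own strand in RefSeq GRCh38.p14, from 250 bases before the annotated start to 50 bases after it. Capitals mark matches to the AP-1 motif TGANTCA on either strand. Promoter windows were searched for 7 of the 9 listed genes. PLAT, which fell with both hairpins, and THBD were not among them. PLAU and SERPINE2 had 2 entries each, of which the downstream entry of PLAU is printed.
F3 (chr1:94541710-94542009, minus strand): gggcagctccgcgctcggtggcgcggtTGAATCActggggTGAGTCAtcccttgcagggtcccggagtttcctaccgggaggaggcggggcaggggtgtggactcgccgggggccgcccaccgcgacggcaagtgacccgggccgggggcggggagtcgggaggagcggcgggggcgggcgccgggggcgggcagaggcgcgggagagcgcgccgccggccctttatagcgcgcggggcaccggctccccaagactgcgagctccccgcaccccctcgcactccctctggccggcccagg
PLAUR (chr19:43670120-43670419, minus strand): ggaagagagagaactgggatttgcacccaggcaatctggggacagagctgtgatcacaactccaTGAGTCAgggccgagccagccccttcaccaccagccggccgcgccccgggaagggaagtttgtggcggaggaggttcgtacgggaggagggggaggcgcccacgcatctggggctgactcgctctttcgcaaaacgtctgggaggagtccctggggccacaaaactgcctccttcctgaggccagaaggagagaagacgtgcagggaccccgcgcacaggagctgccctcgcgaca
PLAU (chr10:73910882-73911181, plus strand): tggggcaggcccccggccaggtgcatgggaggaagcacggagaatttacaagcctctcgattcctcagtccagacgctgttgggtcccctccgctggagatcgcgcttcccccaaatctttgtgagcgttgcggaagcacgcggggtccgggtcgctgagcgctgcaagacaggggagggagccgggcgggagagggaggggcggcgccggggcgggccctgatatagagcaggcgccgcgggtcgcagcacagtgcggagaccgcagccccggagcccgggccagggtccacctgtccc
TFPI (chr2:187554386-187554685, minus strand): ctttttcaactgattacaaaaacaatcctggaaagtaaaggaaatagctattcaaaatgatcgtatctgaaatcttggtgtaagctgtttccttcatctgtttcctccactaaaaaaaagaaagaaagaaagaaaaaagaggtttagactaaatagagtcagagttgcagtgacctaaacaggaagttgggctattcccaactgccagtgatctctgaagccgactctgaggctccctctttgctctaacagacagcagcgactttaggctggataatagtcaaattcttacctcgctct

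The F3 window held 2 AP-1 matches, at positions -223 and -210, and the PLAUR window held 1, at -186. Positions give the leftmost base of a match relative to the annotated start. Neither PLAU window nor the TFPI window held one. Among 35116 promoter windows of the same length, 7.71% had at least 1 AP-1 match and 0.515% had 2 or more. Of the members that were not printed, TFPI2 had 1 match, at -87, SERPINB2 had 1, at -102, and SERPINE2 had none. The SP1 motif GGGCGG was matched 4 times in the F3 window and 3 times in the printed PLAU window, with a match in 45% of all windows. It was not matched in the PLAUR and TFPI windows. Of the windows not printed, TFPI2 had 2 matches, the SERPINE2 windows had 1 and 2, and SERPINB2 and the other PLAU window had none. The EGR motif GCGNGGGCG was matched once each in F3, PLAUR and TFPI2, against 9.43% of all windows, and in F3 and TFPI2 its letters overlap an SP1 match. The TATA motif TATAAA, searched like every motif here on either strand, was matched in 11.5% of windows. F3 had a match at -28 on the opposite strand, where the printed strand reads TTTATA. SERPINB2 had one at -30 on the gene's own strand. Neither the TEAD motif GGAATG (14% of windows) nor the CRE motif TGACGT (7.98%) was found in any searched window of a listed gene. The NF-kB motif was found in the TFPI2 window alone, against 11.3% of all windows. A match is a run of letters and not a measured binding site, and binding was not measured here.

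Array medians over all clusters lay between 6.39 and 6.43, and 42.0% to 46.2% of clusters exceeded the 95th percentile of 612 negative control probe sets on their array, which was 6.93 to 7.54. The hybridization spike-ins, foreign transcripts added to the labelled sample, had a mean signal of 11.18 to 11.38 on 5 arrays (all control arrays and shLSD1 #2 replicates 7 and 9) and of 10.80 to 10.93 on the other 4 (all shLSD1 #1 arrays and shLSD1 #2 replicate 8). No label gives these classes, called high and low here. They were set at the largest gap between the array means of 4 spike-in probe sets, with shLSD1 #2 replicate 9 the lowest of the high class. For shLSD1 #1 this spike-in class and the hairpin cannot be told apart by a comparison within a class, because no control array is in the low class. Of 10 markers of mesothelial cells, MSLN, KRT8 and KRT18 exceeded the negative controls on all 9 arrays, and 3 others (CALB2, LRRN4 and HP) on none. WT1 did so on all 6 hairpin arrays and no control array, with means of 7.84 and 7.75 with shLSD1 #1 and #2, against 7.001 with control shRNA. UPK3B did so on 2 shLSD1 #1 arrays, 3 shLSD1 #2 arrays and no control array, with means of 7.59 and 7.61 with the hairpins, against 6.27 with control shRNA. MSLN averaged 11.15 and 11.05 with the hairpins, against 11.99 with control shRNA. KRT19 exceeded the negative controls on 1 shLSD1 #2 array alone, with means of 6.46 and 6.81 with the hairpins, against 6.82 with control shRNA. PDPN exceeded them on 1 control array alone, with means of 6.91 and 6.67, against 7.25. None of 7 endothelial markers did so on any array, and of 6 markers of blood and monocytic cells only CD68 and CSF1R did, while PTPRC, CD14, LYZ and ITGAM did not. CD68, a lysosomal protein, averaged 10.79 with shLSD1 #1 and 10.56 with shLSD1 #2, against 11.91 with control shRNA. The part of these markers in the results was not tested. As in any bulk sample, fewer cells that express a gene and less RNA per cell cannot be told apart.

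**Figure D1:**
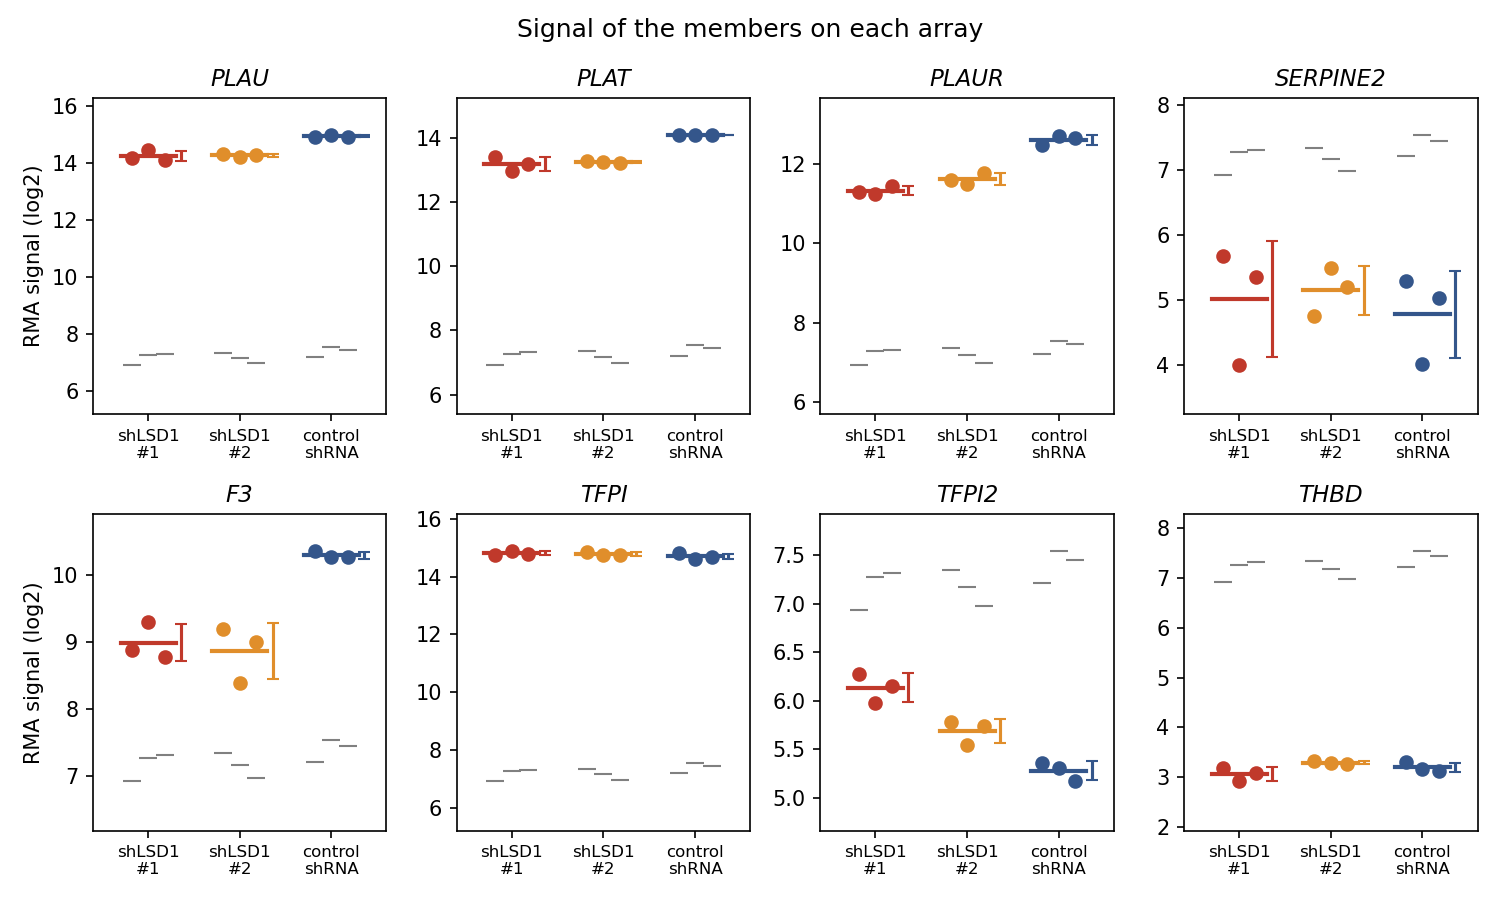
RMA signal (log2) of the 8 members on each array, with the groups from left to right shLSD1 #1, shLSD1 #2 and control shRNA. Points are arrays, thick lines are group means, bars are SD (n = 3) and grey dashes are that array's 95th percentile over negative control probes. PLAU, PLAT, PLAUR and F3 sit below all control arrays on all 6 hairpin arrays, TFPI overlaps between groups, and SERPINE2, TFPI2 and THBD stay under the grey dashes; each panel has its own axis, which does not start at 0.

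The first question is whether the plasminogen activators and their receptor changed. PLAU, which encodes urokinase, had log2 signals of 14.19, 14.45 and 14.12 on the shLSD1 #1 arrays and 14.33, 14.23 and 14.29 on the shLSD1 #2 arrays, against 14.93, 14.998 and 14.93 on the control arrays. Each hairpin array lay below each control array, and the 2 hairpin groups overlapped. The log2 change was -0.70 ± 0.12 with shLSD1 #1 and -0.67 ± 0.12 with shLSD1 #2 (SE, n = 3 arrays a group, limma adjusted p = 0.00344 and 0.00481), which is 1.62-fold and 1.59-fold lower. The difference between hairpins was -0.03, with a 95% interval from -0.29 to 0.24.

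PLAT, which encodes tissue plasminogen activator, the main activator of plasminogen on fibrin, behaved alike in direction. Its log2 signal was 13.39, 12.97 and 13.19 with shLSD1 #1 and 13.29, 13.25 and 13.22 with shLSD1 #2, against 14.08, 14.07 and 14.09 with control shRNA. The control arrays spread little (SD 0.011, n = 3), the shLSD1 #1 arrays more (SD 0.21), and no hairpin array reached a control array. PLAT changed by -0.90 ± 0.12 and -0.83 ± 0.12 on the log2 scale (SE, limma adjusted p = 0.00122 and 0.00204), or 1.86-fold and 1.77-fold lower. Between hairpins its difference was -0.07, with an interval from -0.35 to 0.21.

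PLAUR, the anchored receptor that concentrates urokinase at the cell edge, had log2 signals of 11.29, 11.26 and 11.46 with shLSD1 #1 and 11.62, 11.50 and 11.79 with shLSD1 #2, against 12.49, 12.73 and 12.66 with control shRNA. All shLSD1 #1 arrays lay below all shLSD1 #2 arrays, and these below all control arrays. The log2 change was -1.29 ± 0.12 and -0.99 ± 0.12 (SE, limma adjusted p = 0.000155 and 0.000762), which is 2.44-fold and 1.99-fold lower. The order of the hairpins did not hold up in the fit across all clusters, where the shLSD1 #1 minus shLSD1 #2 difference of -0.30 (95% interval -0.58 to -0.02) had a limma adjusted p of 0.621.

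Of the serpins, SERPINE2 encodes protease nexin-1, which inactivates urokinase, tissue plasminogen activator and thrombin. Its log2 signal was 5.68, 3.998 and 5.35 with shLSD1 #1 and 4.74, 5.49 and 5.20 with shLSD1 #2, against 5.28, 4.02 and 5.03 with control shRNA. All 9 values were under the negative control level, the groups overlapped, and no fold is given. The fitted log2 changes of 0.23 ± 0.45 and 0.37 ± 0.45 (SE) had intervals from -0.78 to 1.24 and from -0.64 to 1.38, so a change in either direction could not be seen at this signal.

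The second question concerns the start of coagulation and its restraint. F3, which encodes tissue factor, had log2 signals of 8.88, 9.30 and 8.78 with shLSD1 #1 and 9.20, 8.40 and 9.01 with shLSD1 #2, against 10.36, 10.27 and 10.26 with control shRNA. The control arrays were close to each other (SD 0.052, n = 3) and the hairpin arrays more scattered (SD 0.28 and 0.42), yet the highest hairpin array stayed below the lowest control array. The log2 change was -1.31 ± 0.21 with shLSD1 #1 and -1.43 ± 0.21 with shLSD1 #2 (SE, limma adjusted p = 0.00276 and 0.00189), or 2.48-fold and 2.70-fold lower. The lowest value, 8.40, belonged to shLSD1 #2 replicate 8, the array of that group in the low spike-in class. Without that array the shLSD1 #2 change of F3 was -1.20. The hairpins differed by 0.12, with an interval from -0.35 to 0.60.

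TFPI, which encodes the inhibitor that shuts down the tissue factor and factor VIIa complex, passed with neither hairpin. Its log2 signal was 14.74, 14.88 and 14.80 with shLSD1 #1 and 14.85, 14.74 and 14.76 with shLSD1 #2, against 14.81, 14.61 and 14.68 with control shRNA. The groups overlapped. The log2 change was 0.11 ± 0.11 with shLSD1 #1 (95% interval -0.13 to 0.35, limma adjusted p = 0.558) and 0.08 ± 0.11 with shLSD1 #2 (interval -0.16 to 0.32, limma adjusted p = 0.704). These intervals leave out a change in TFPI as large as that measured for F3 in either direction.

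TFPI2 and THBD had no signal above the negative controls on any array. TFPI2, the Kunitz-type inhibitor of plasmin, had log2 values of 6.28, 5.98 and 6.15 with shLSD1 #1 and 5.78, 5.55 and 5.74 with shLSD1 #2, against 5.36, 5.31 and 5.17 with control shRNA. The 3 groups did not overlap, and the fitted difference was 0.86 ± 0.12 with shLSD1 #1 (SE, limma adjusted p = 0.00160) and 0.41 ± 0.12 with shLSD1 #2 (adjusted p = 0.0593). Because every value is under the negative control level no fold is given. The shLSD1 #1 minus shLSD1 #2 difference was 0.45 (95% interval 0.17 to 0.73, limma adjusted p = 0.479). THBD, thrombomodulin, had log2 values of 3.18, 2.92 and 3.08 with shLSD1 #1 and 3.32, 3.29 and 3.27 with shLSD1 #2, against 3.30, 3.16 and 3.13 with control shRNA, and passed the test with neither hairpin (adjusted p = 0.489 and 0.648).

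**Figure D2:**
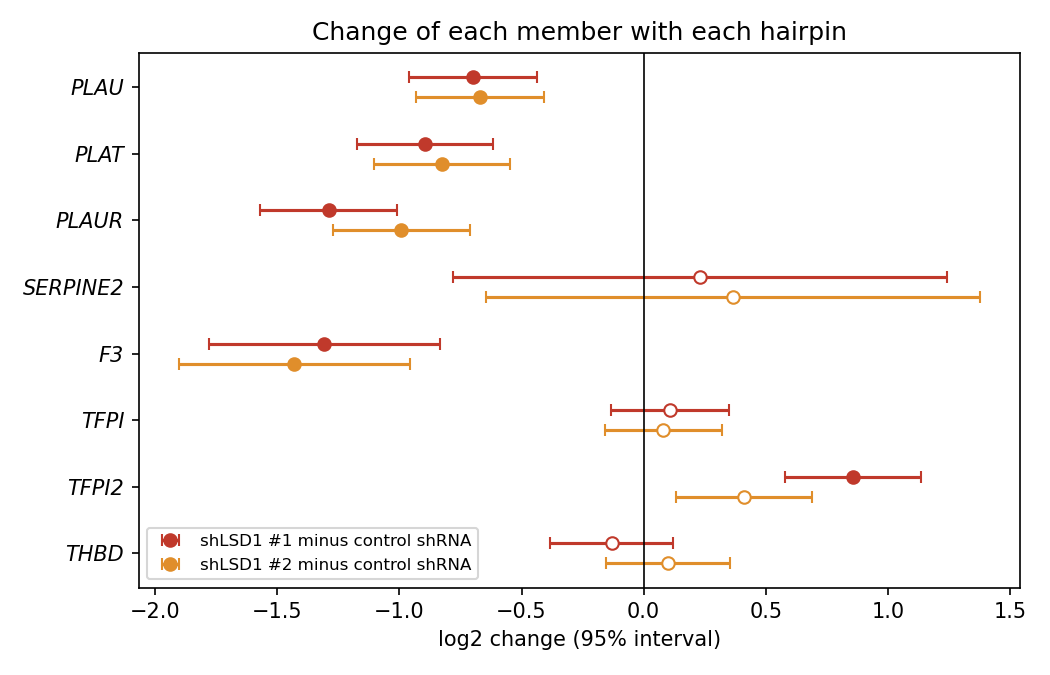
Log2 change of each member (rows) with shLSD1 #1 (upper point) and shLSD1 #2 (lower point) against control shRNA. Points are limma estimates from 3 arrays a group, bars are 95% intervals, and filled points have an adjusted p under 0.05. PLAU, PLAT, PLAUR and F3 lie left of 0 with both hairpins, and TFPI spans 0.

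Between the hairpins themselves, 0 of the 8 members differed at the adjusted threshold in limma, as did 0 of 21448 clusters (0%), with a smallest adjusted p of 0.479 among the members. At an unadjusted p under 0.05, 2 of the 8 members (PLAUR and TFPI2) and 1687 of all clusters differed. With a trended robust prior, 42 of all clusters differed between the hairpins, and 0 of them were members.

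The member calls depended on how the spike-in class was treated for shLSD1 #1. When a block for the class was added, 0 of 8 members passed with shLSD1 #1 (TFPI2 had an adjusted p of 0.0519), and the log2 changes were -0.62 ± 0.22 for PLAU, -0.89 ± 0.23 for PLAT, -1.09 ± 0.22 for PLAUR and -0.60 ± 0.28 for F3 (SE, limma adjusted p = 0.223, 0.113, 0.0518 and 0.356). In that fit the class effect comes from the shLSD1 #2 arrays alone, so the value for F3 rests on the low signal of shLSD1 #2 replicate 8. With shLSD1 #2 the same block left the 4 calls in place. There the block takes up replicate 8, so the estimate is that of replicates 7 and 9 against the control arrays. A fit of those arrays alone, all of the high class, kept the 4 calls too. It gave -0.65 for PLAU, -0.82 for PLAT, -0.92 for PLAUR and -1.20 for F3 (limma adjusted p = 0.0314, 0.0154, 0.0187 and 0.00665). Because the estimate is the same, it is not a separate check.

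**Figure D3:**
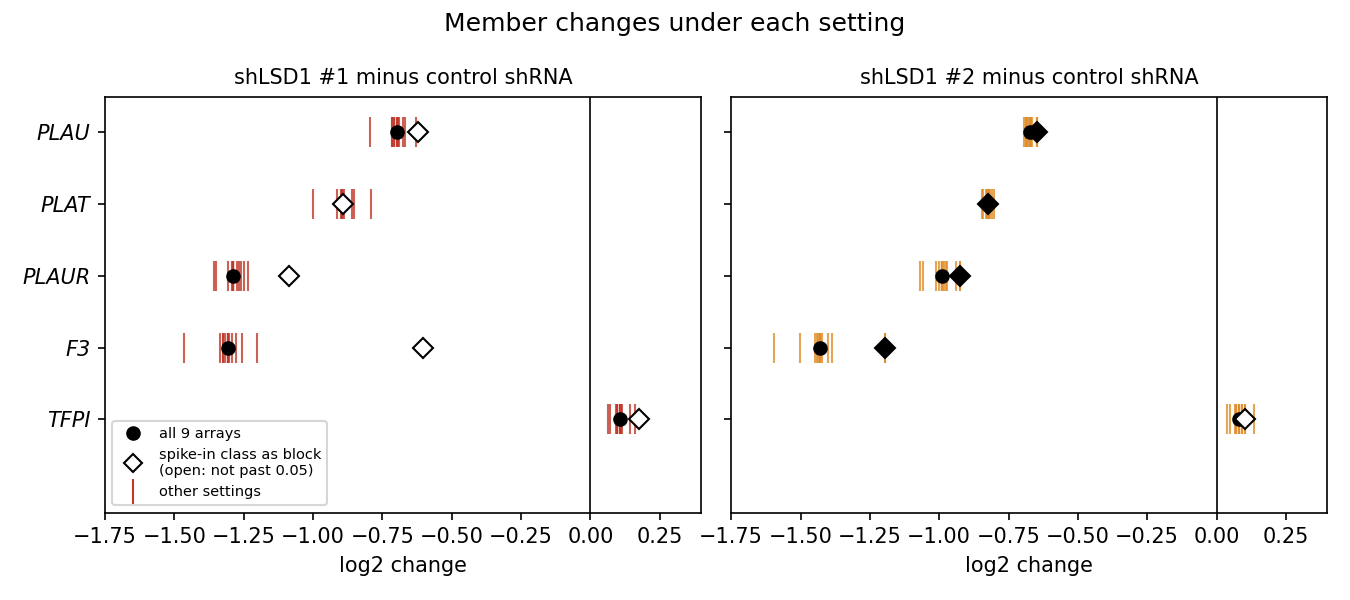
Log2 change of PLAU, PLAT, PLAUR, F3 and TFPI with shLSD1 #1 (left) and shLSD1 #2 (right) against control shRNA. Black circles use all 9 arrays, diamonds add the spike-in class as a block (open where the adjusted p did not reach the threshold) and coloured ticks are the other settings. The diamond of F3 with shLSD1 #1, at -0.60, stands apart from its circle at -1.31, and no setting takes one of the 4 lowered genes to 0.

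**Figure D4:**
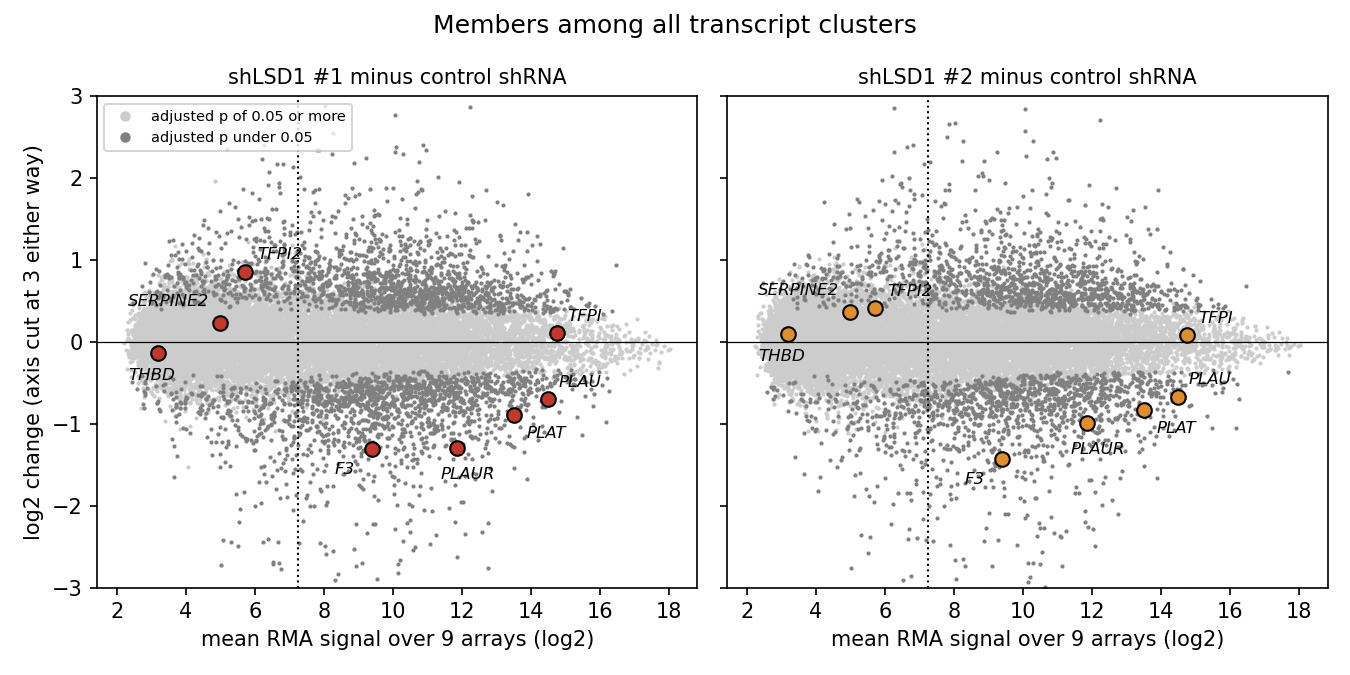
Log2 change against mean signal over 9 arrays (log2 RMA) for all clusters, with shLSD1 #1 on the left and shLSD1 #2 on the right. Dark grey clusters have an adjusted p under 0.05, coloured circles are the members, the dotted line is the mean 95th percentile of the negative controls, and 25 and 29 clusters lie beyond the axis. PLAU, PLAT, PLAUR and F3 sit in the lower cloud right of the dotted line, and SERPINE2, TFPI2 and THBD sit left of it.

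For each member that passed with at least 1 hairpin, the genes of nearest pattern were those with the smallest root mean square difference over the 9 arrays, after each gene was centred on its own mean. The search ran over 8326 clusters with a single symbol that exceeded the negative controls on all arrays of at least 1 group. PLAU lay nearest to FTL, the ferritin light chain, at 0.062, and to N4BP1 at 0.069, beside a spread of 0.33 for PLAU itself. PLAT lay nearest to PTP4A1, a phosphatase, at 0.072, and to CEBPG, a leucine zipper transcription factor, at 0.072, beside a spread of 0.42. The nearest patterns to PLAUR were those of FAM241A at 0.085 and SLC2A3, a glucose transporter, at 0.11, beside a spread of 0.56. F3 lay nearest to PARP3 at 0.13 and SH3BP2 at 0.13, beside a spread of 0.69. TFPI2, whose own values are under the negative controls, lay nearest to CPA4 at 0.085 and HIPK2 at 0.095, beside a spread of 0.36. None of the nearest genes is a member. FTL changed by -0.66 and -0.62 and PTP4A1 by -0.84 and -0.88 on the log2 scale, SLC2A3 by -1.28 and -1.17 and PARP3 by -1.18 and -1.31, so the nearest genes moved by about the size of the member they were matched to, as the measure requires.

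The rest of the plasminogen and coagulation pathway was taken as a list of 66 other genes, of which 62 had a cluster. Of the 62, 40 did not exceed the negative controls on any array, beside 11133 of all 21448 clusters. With shLSD1 #1, 8 were lower and 7 higher, 15 of 62 in all, beside 15.8% of all clusters. With shLSD1 #2, 5 were lower and 7 higher, 12 of 62, beside 13.2% of all clusters. Of these, 11 of the 15 and 10 of the 12 exceeded the negative controls on at least 1 array. Over all clusters, 2879 of the 3385 and 2455 of the 2827 that passed did so. The median log2 change of the list was 0.04 and 0.03, beside 0.03 and 0.02 over all clusters. A total of 3 genes were lower and 7 higher with both hairpins, beside 5.32% and 5.11% of all clusters. Among 25 genes of fibrinolysis and surface proteolysis, 3 were lower and 5 higher with each hairpin. Among 37 coagulation genes, 5 were lower and 2 higher with shLSD1 #1, and 2 and 2 with shLSD1 #2. The clotting factor genes F2, F5, F7, F8, F9, F10, F11, F12, F13A1 and F13B, most of which are made by the liver, did not exceed the negative controls on any array. Among them is F7, the partner of tissue factor, and the same held for PLG, plasminogen itself. F7 had log2 differences of 0.10 and -0.00046 (limma adjusted p = 0.786 and 0.9995) and PLG of 0.23 and 0.41 (adjusted p = 0.695 and 0.485).

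F2R, A2M and MET were higher with both hairpins. F2R, the thrombin receptor PAR1, had log2 signals of 8.18, 8.26 and 8.34 with shLSD1 #1 and 8.45, 8.33 and 8.50 with shLSD1 #2, against 6.52, 6.48 and 6.70 with control shRNA. Every hairpin array exceeded the negative controls and no control array did, so F2R was at least 1.81-fold and at least 2.03-fold higher (limma adjusted p = 1.78e-05 and 8.82e-06), with the control arrays set to their negative control percentile. A2M, alpha-2-macroglobulin, which traps plasmin, thrombin and many other proteases, had 14.46, 14.63 and 14.44 with shLSD1 #1 and 14.60, 14.44 and 14.64 with shLSD1 #2, against 12.75, 12.73 and 12.61 with control shRNA. The hairpin groups overlapped and lay far above the control arrays. A2M rose by 1.81 ± 0.11 and 1.86 ± 0.11 on the log2 scale (SE, limma adjusted p = 1.25e-05 and 8.93e-06), or 3.51-fold and 3.64-fold. MET, the receptor of hepatocyte growth factor, whose ligand is switched on by serine proteases, rose by 1.24 ± 0.099 and 1.29 ± 0.099 (SE, limma adjusted p = 5.08e-05 and 3.82e-05). When the spike-in class was a block, F2R, A2M, MET and SERPINB8 passed with both hairpins.

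SERPINB8, an intracellular serpin, fell with both hairpins. Its log2 signals were 7.18, 7.14 and 6.77 with shLSD1 #1 and 7.04, 7.10 and 6.89 with shLSD1 #2, against 8.80, 8.82 and 8.60 with control shRNA. The control arrays all exceeded the negative controls, as did 1 shLSD1 #1 array and no shLSD1 #2 array, so it was at least 2.97-fold lower with shLSD1 #2 (limma adjusted p = 5.4e-05). The fitted log2 change with shLSD1 #1 was -1.71 (adjusted p = 6.1e-05), a value that rests in part on 2 arrays under the negative controls. MCFD2, which with LMAN1 carries factors V and VIII out of the endoplasmic reticulum, changed by -0.54 and -0.55 (limma adjusted p = 0.0103 and 0.0112), and TGM2, a transglutaminase that crosslinks matrix proteins, by -0.48 and -0.53 (adjusted p = 0.0109 and 0.00749). Both calls ended with shLSD1 #1 when the spike-in class was a block (adjusted p = 0.337 and 0.307) and with shLSD1 #2 among arrays of the high class (adjusted p = 0.0675 and 0.0570).

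LRP1, LRP8, MRC2, PROCR and LMAN1 passed with a single hairpin, and THBS1 with both. LRP1, the scavenger receptor that clears urokinase bound to its inhibitors, had log2 changes of -0.38 and -0.82 (limma adjusted p = 0.0994 and 0.00420). It passed with shLSD1 #1 under 1 of 17 alternatives, a trended robust prior (0.0457). MRC2, a collagen receptor that partners the urokinase receptor, had changes of -0.69 and -0.999 (adjusted p = 0.0568 and 0.0140). The MRC2 call with shLSD1 #2 ended without control replicate 2 (adjusted p = 0.0523) and among arrays of the high class (0.0695), and MRC2 passed with shLSD1 #1 under 6 of 17 alternatives, among them without shLSD1 #2 replicate 8 (0.0409). LRP8, a lipoprotein receptor of the same family as LRP1, had -0.86 and -0.47 (adjusted p = 0.00287 and 0.0565), with 1 of 3 shLSD1 #1 arrays above the negative controls, and passed with shLSD1 #2 under 4 of 18 alternatives, among them without shLSD1 #2 replicate 9 (0.0256). PROCR, the protein C receptor, had -0.49 and -0.39 (adjusted p = 0.0312 and 0.0867). Its call with shLSD1 #1 was lost without control replicate 1 or 2 or shLSD1 #1 replicate 4 or 6 (adjusted p = 0.0996, 0.0974, 0.0732 and 0.103). A fit of only the 2 groups compared lost it too (0.0553). PROCR passed with shLSD1 #2 under 2 of 18 alternatives, the dimmest clusters left out (0.0449) and a trended robust prior (0.0459). LMAN1 had -0.34 and -0.33 (adjusted p = 0.0472 and 0.0586), and its call with shLSD1 #1 ended without any 1 of the 9 arrays (adjusted p between 0.0596 and 0.120). That call also ended with only the 2 groups compared (0.0840) and with cyclic loess normalization (0.0510). LMAN1 passed with shLSD1 #2 under 3 of 18 alternatives: the dimmest clusters left out (0.0221), a trended robust prior (0.000364) and array weights (0.0468). When the spike-in class was a block, the shLSD1 #1 calls of LRP8, PROCR, LMAN1 and THBS1 were lost as well (adjusted p = 0.319, 0.639, 0.341 and 0.141). The tests of LRP1, LRP8, MRC2, PROCR and LMAN1 between the hairpins did not pass (limma adjusted p between 0.538 and 0.990). THBS1, the matrix protein thrombospondin-1, had 0.44 and 0.45 (adjusted p = 0.0329 and 0.0333). Its shLSD1 #1 call was lost without any 1 control or shLSD1 #1 array or shLSD1 #2 replicate 7 (adjusted p between 0.0516 and 0.0984). Its shLSD1 #2 call was lost without any 1 control array or shLSD1 #2 replicate 7 or 9 (adjusted p between 0.0732 and 0.102). That call was also lost in a fit of only the 2 groups compared (0.0594) and among arrays of the high class.

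**Figure D5:**
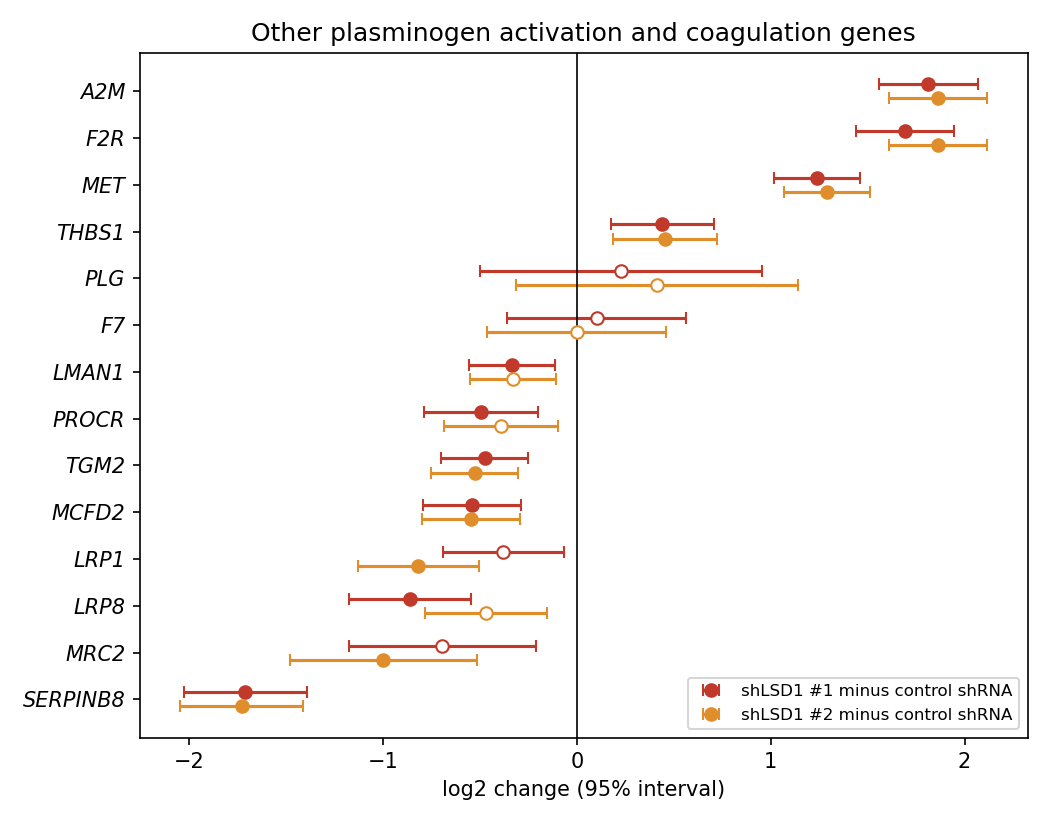
Log2 change of the 14 named genes of the wider list (rows) with shLSD1 #1 (upper point) and shLSD1 #2 (lower point) against control shRNA. Points are limma estimates from 3 arrays a group, bars are 95% intervals, and filled points have an adjusted p under 0.05. A2M, F2R and MET lie right of 1 and SERPINB8 left of -1 with both hairpins.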

How the data were processed

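The deposited values are log2 signals per transcript cluster, which the authors made by robust multi-array average (RMA) in Affymetrix Expression Console 1.4, per the submitters' processing notes. RMA writes base 2 by default, which was assumed. Library files and options were not given in the sources used. RNA was column-purified and amplified as biotinylated cDNA, per the labels' protocols. Groups came from the sample titles. The number of arrays limits the precision.

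All 21448 clusters, without the 2903 control probe sets, entered 1 limma fit of the 3 group means (limma 3.58.1, R 4.3.3, lmFit and eBayes without trend) with no filter on signal. Benjamini-Hochberg adjustment of the two-sided p-values ran over all clusters (threshold 0.05). Symbols came from the platform annotation, and 3739 clusters had none. The cluster of highest mean stood for a gene with several. A lower bound sets a group under the negative controls on all arrays to their 95th percentile. The procedure was tested on simulated data.

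Members, lists, motifs and tests were chosen with earlier results of these data known. Named beside the members were the genes of the wider list that passed with at least 1 hairpin and exceeded the negative controls on all arrays of a group, up to 12 by size of change, with F2R, PROCR, PLG and F7 in any case, and the 2 genes of nearest pattern per member that passed. Some other genes of that list were not analysed here. Alternatives were other normalizations, a signal filter, other priors and weights, fits of fewer groups, omission of each array, and the spike-in class. Plots used matplotlib 3.10.9.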

Additional observations from a re-analysis of the deposited data

How the results depend on the processing

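The falls of PLAU, PLAT, PLAUR and F3 kept their direction and their side of the threshold under 16 of 17 alternatives for shLSD1 #1 and 18 of 18 for shLSD1 #2. The exception was the spike-in class as a block, under which 0 members and 4 of the other pathway genes passed with shLSD1 #1. For shLSD1 #2, the block, the arrays of the high class and the omission of replicate 8 share the same estimate, so they are not separate checks. Values under the alternatives ran from -0.80 to -0.62 for PLAU, -0.999 to -0.79 for PLAT, -1.36 to -1.09 for PLAUR and -1.46 to -0.60 for F3 with shLSD1 #1, and from -0.69 to -0.65, -0.84 to -0.80, -1.07 to -0.92 and -1.60 to -1.20 with shLSD1 #2. TFPI passed under none. TFPI2 passed with shLSD1 #2 when the dimmest clusters were left out (adjusted p = 0.0281) and with array weights (0.0433), and its shLSD1 #1 call ended with the block (0.0519). The wider list had 8 to 15 genes past the threshold with shLSD1 #1 when 1 array was left out, with 8 without control replicate 2 and 9 without shLSD1 #1 replicate 4 or 5. With shLSD1 #2 it had 6 among arrays of the high spike-in class. The cause was not tested, though the fit of the high class has 5 arrays. No paired analysis was run, because the titles number the arrays in 1 running series. The labels do not say whether arrays of different groups belong together. Low signal limits what SERPINE2, TFPI2 and THBD can show.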
